A study of Mus musculus with 14 samples.

Results

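The proteasome genes of this series were the 48 rows of the deposited count table whose gene name is Psma, Psmb, Psmc, Psmd, Psme, Psmf or Psmg followed by a number, out of 55401 rows. They comprised 19 core genes (Psma and Psmb), 20 base and lid genes (Psmc and Psmd) and 9 genes of activators, the inhibitor Psmf1 and core assembly chaperones (Psme, Psmf and Psmg). A filter on low counts was passed by 14599 genes, among them 46 proteasome genes. It removed Psmb10, which had 0 counts in all 14 libraries, and Psmb11, which had 34, 6 and 11 counts in 3 libraries and 0 in the others. The name rule takes in 3 genes that are known as base assembly chaperones, Psmd5, Psmd9 and Psmd10, and these are counted with the base and lid below. It also takes in genes of restricted expression, such as Psmb11 of the thymus and Psma8 of the testis.

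The proteasome degrades proteins that carry ubiquitin chains. Its core is a barrel of alpha and beta rings, in which Psmb5, Psmb6 and Psmb7 encode the beta subunits that cut peptide bonds, while interferon can replace these by the immunoproteasome subunits of Psmb8, Psmb9 and Psmb10. The base unfolds substrates with a ring of ATPases (Psmc genes), and the lid removes ubiquitin through the deubiquitinase Psmd14. In neurons proteasomes turn over proteins in the cell body and at synapses.

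The neurons were EGFP-labelled cells of PiC in wild-type C57BL/6 mice that had received the retrograde virus AAVretro-EGFP, 0.1 µl per injection, in MeA or PrL. The abbreviations PiC, MeA and PrL are used as the labels give them, and every group carried the virus. The groups were male PiC-MeA (n = 3), female PiC-MeA (n = 3), male PiC-PrL (n = 4) and female PiC-PrL (n = 4), and no age is stated in the labels. Each library pooled 4 to 5 neurons picked with a micropipette and amplified with SMART-Seq2, which reads polyadenylated RNA along its length. The labels do not say that tubes came from separate animals, so p-values measure only the spread between tubes. Sex differences in expression are the stated subject of the series, and 4 groups allow males to be set against females in a projection, or PiC-MeA against PiC-PrL in a sex.

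Total counts ran from 6132985 to 15392217 per library, and the lowest total was that of male PiC-MeA replicate 3. The male PiC-MeA libraries stood apart, with 18964 to 20014 genes detected by 1 count or more, where the other 11 had 12479 to 14908. Of all counts, mitochondrial genes made up 4.80 to 15.3% in the male PiC-MeA group and 3.29 to 12.2% in the others. The summed level of the 6 astrocyte markers was 988 to 1202 CPM (read counts scaled by library size with TMM factors) in males of PiC-MeA and 262.5 to 395.5 CPM in females of PiC-MeA, where Aqp4 was at 0. It was 590.1 to 1811 CPM in male PiC-PrL and 682 to 1164 CPM in female PiC-PrL libraries. Slc1a2 and Slc1a3 made up most of each group's sum. Gfap did not follow the sum. It averaged 34.7 CPM in female PiC-MeA, 28.1 CPM in male PiC-MeA, 68.5 CPM in male PiC-PrL and 2.51 CPM in female PiC-PrL libraries. Neuron markers (7 genes) summed to 6262 to 9542 CPM in male PiC-MeA and 6720 to 9320 CPM in female PiC-MeA libraries. The sums were 11770 to 18350 CPM in male PiC-PrL and 9827 to 15370 CPM in female PiC-PrL libraries, so the sums of the projections did not overlap. Snap25 made up most of each group's sum, with averages from 6061 to 13300 CPM. Taken singly, each of the 7 markers overlapped between the projections. Gad1 and Gad2 averaged higher in PiC-MeA than in PiC-PrL in males and lower in females. Slc17a6 averaged 268 ± 281.5 CPM in male PiC-MeA libraries and at most 15.1 CPM in the other groups. Endothelial markers (4 genes) summed to 6.63 to 47.2 CPM in male PiC-MeA libraries and to at most 1.94 CPM in any other, with Flt1 highest and Cldn5 at 0 throughout. Oligodendrocyte sums (255.8 to 1985 CPM) and microglia sums (67.1 to 641.7 CPM) overlapped between the groups. What part these features had in the results below was not tested, except where a fit with the number of detected genes is given.

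Levels were compared between genes as CPM per kb of the longest principal transcript, averaged over the 14 libraries. Psmb6, which encodes the caspase-like beta subunit, had the highest level of all proteasome genes at 746 CPM per kb, and it ranked first in 12 of the 14 libraries. In the other 2 libraries Psma1, an alpha ring gene, ranked first. The 14 constitutive core genes spanned a 23.8-fold range down to Psma3, an alpha ring gene at 31.3 CPM per kb. In the alpha ring the highest was Psma7 at 315 CPM per kb, and in the beta ring the lowest was Psmb7, the gene of the trypsin-like subunit, at 58.8 CPM per kb. This order depends on the length used, which was 2846 bases for Psma3 and 1160 bases for Psmb7. Before scaling by length, the median of Psma3 (92.9 CPM) was above that of Psmb7 (57.8 CPM). The 6 ATPase genes lay closer together, within a 4.2-fold range between 100.6 CPM per kb for Psmc6 and 422 CPM per kb for Psmc5. The core and ATPase proteins are known to enter the particle in equal numbers, which their mRNA levels per kb, at the lengths used, did not mirror.

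**Figure D1:**
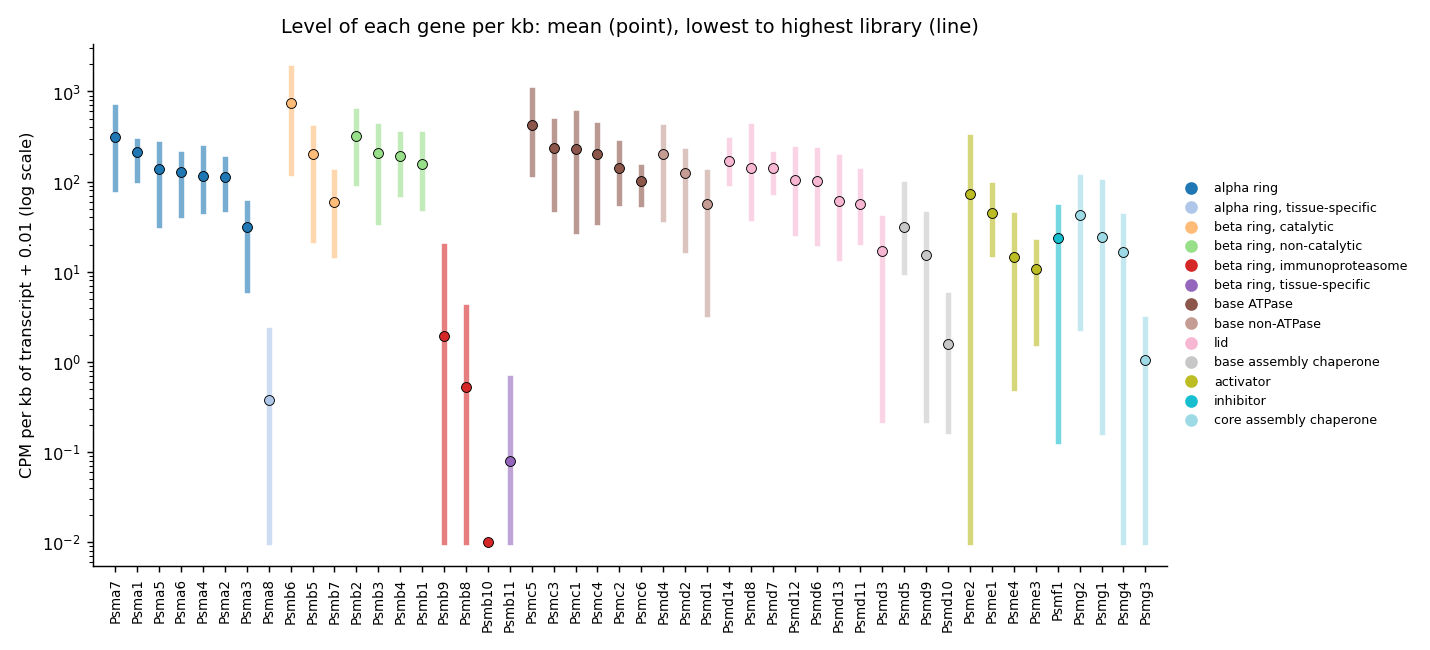
Level of each of the 48 genes in CPM per kb of transcript plus 0.01, on a log axis, grouped by role, with the mean over 14 libraries as a point and the lowest to highest library as a line. Psmb6 is highest, and the immunoproteasome genes Psmb8, Psmb9 and Psmb10, the tissue-specific genes Psma8 and Psmb11, and the chaperones Psmd10 and Psmg3 lie far below the constitutive core.

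In the lid, Psmd14 had the highest level at 168.5 CPM per kb and the scaffold gene Psmd3 the lowest at 17.1 CPM per kb. The ubiquitin receptor gene Psmd4 averaged 202 CPM per kb, and Psmd2, whose protein docks ubiquitin shuttles, averaged 125 CPM per kb. Genes of assembly chaperones had lower medians, at 15.5 CPM per kb for the base and 20.4 for the core chaperones, against 103 for the lid. Some of them, such as Psmd5 and Psmg2, still lay above Psmd3. The base chaperones ran from 1.55 CPM per kb for Psmd10 to 31.4 CPM per kb for Psmd5, and the core chaperones from 1.03 for Psmg3 to 42.9 for Psmg2. Among activators Psme2, a PA28 subunit gene, was highest at 73.1 CPM per kb and Psme3, the gene of PA28 gamma, lowest at 10.6 CPM per kb.

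Immunoproteasome genes were close to silent in most tubes. Psmb8 and Psmb9 together held 673 counts over all libraries, against 151416 for the constitutive catalytic genes Psmb5, Psmb6 and Psmb7, or 0.443% of the counts of both sets together. Most of these counts came from single tubes. Psmb9 had 367 counts in female PiC-PrL replicate 4 and 108 in female PiC-MeA replicate 2, and Psmb8 had 103 in female PiC-MeA replicate 3, while all 4 male PiC-PrL libraries had 0 counts of Psmb9. Psmb10 was at 0 throughout, which allows up to 0.192 to 0.433 CPM per library for counting error only. B2m, a gene that nearly all cells express, was also at 0 in all libraries, so a 0 in this table need not mean that the transcript was missing.

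Psma8 was counted almost only in male PiC-MeA libraries. Its counts were 30, 21 and 26 in male PiC-MeA libraries, 0, 0 and 1 in female PiC-MeA libraries, 1, 1, 4 and 0 in male PiC-PrL libraries and 1, 1, 1 and 2 in female PiC-PrL libraries. The male PiC-MeA libraries lay above all others, at 1.71 to 3.75 CPM. It passed the filter on low counts through these 3 libraries, which are the ones with the most detected genes, so its test results below support no difference between groups. Higher levels without overlap in male PiC-MeA libraries were found for 17.5% of all 14599 genes against female PiC-MeA and for 19.2% against male PiC-PrL, and Psma8 was the 1 such gene of the 46 in each case.

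Summed over all 48 genes, proteasome transcripts were lowest in male PiC-MeA neurons and highest in male PiC-PrL neurons. The sums were 5397, 4934 and 2885 CPM in male PiC-MeA libraries, against 8749, 7755 and 6440 CPM in female PiC-MeA libraries. In PiC-PrL they were 8865, 11606, 9920 and 13758 CPM in male libraries, against 8295, 7840, 7704 and 8235 CPM in female libraries. Males lay below females without overlap in PiC-MeA and above them without overlap in PiC-PrL. In a pool of cells, fewer cells of a type and less RNA per cell cannot be told apart.

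**Figure D2:**
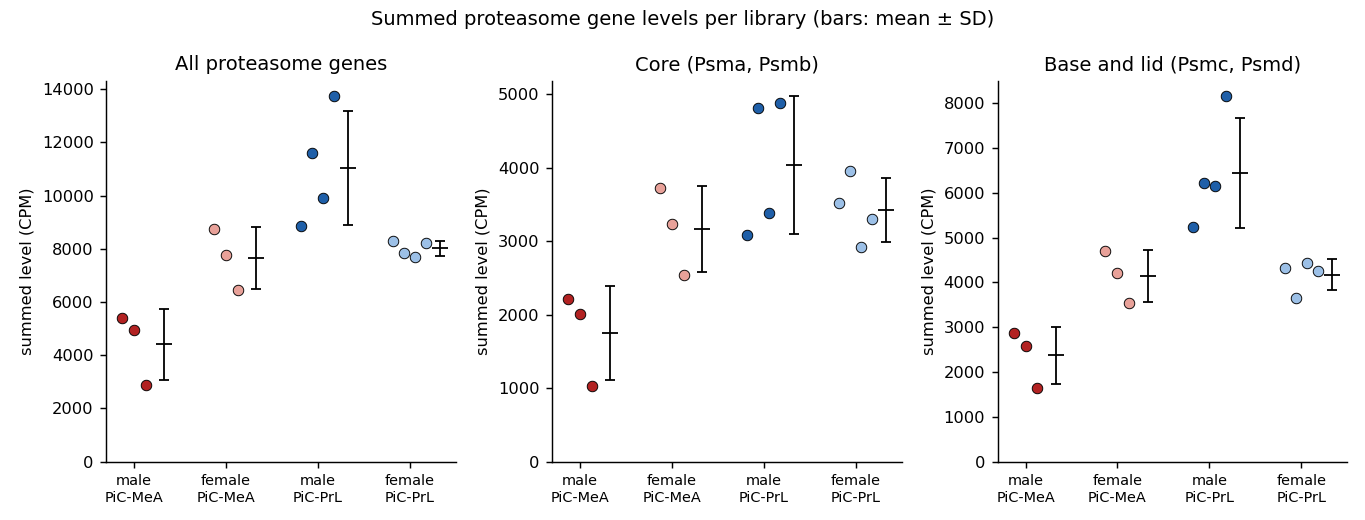
Summed level in CPM of all proteasome genes, of the core and of the base and lid in each library, by group, with the mean ± SD beside the points. For all genes the male PiC-MeA libraries sit between 2885 and 5397 CPM, below every other library, and the male PiC-PrL libraries between 8865 and 13758 CPM, above every other library.

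As a share of raw counts the sexes did not overlap within either projection either. Proteasome genes took 0.326 to 0.647% of all counts in males and 0.725 to 0.916% in females within PiC-MeA. Within PiC-PrL the shares were 0.908 to 1.02% in males and 0.592 to 0.854% in females. With DESeq2 size factors the sums were 3198 to 5264 CPM in male and 6553 to 8653 CPM in female PiC-MeA libraries, and 8564 to 13530 CPM in male and 7533 to 8337 CPM in female PiC-PrL libraries.

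The base and lid genes summed to 6442 ± 1230 CPM in male and 4168 ± 345 CPM in female PiC-PrL libraries (SD, n = 4 each), which did not overlap. The core genes summed to 4038 ± 941 CPM in male and 3423 ± 429 CPM in female PiC-PrL libraries, and these overlapped. In PiC-MeA both sums were lower in males, at 2372 ± 639 CPM against 4148 ± 575 CPM in females for the base and lid and 1749 ± 636 CPM against 3163 ± 589 CPM for the core (SD, n = 3 each). The core sum per base and lid sum was 0.62 to 0.78 in male PiC-MeA, 0.72 to 0.79 in female PiC-MeA, 0.55 to 0.77 in male PiC-PrL and 0.66 to 1.08 in female PiC-PrL libraries, so the groups overlapped in this ratio.

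Between projections in males, 2 of the 46 tested genes were called, Psmc5 and Psmb6, and both were lower in PiC-MeA. A gene was called at a Benjamini-Hochberg adjusted p under 0.05 over all 14599 genes in the quasi-likelihood test of edgeR. By that rule 88 genes were called, 10 higher and 78 lower, which is 0.603% of those tested. Psmc5 encodes an ATPase of the base and lies at chr11:106256154-106263120 (mm10, plus strand). Its level was 319, 243.7 and 158 CPM in male PiC-MeA libraries, against 692, 911.5, 800.2 and 1356 CPM in male PiC-PrL libraries. The highest PiC-MeA male stood below the lowest PiC-PrL male. The log2 fold change was -1.97 ± 0.36 (SE), with an adjusted p of 0.019 in edgeR.

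Psmb6, at chr11:70525367-70527858 (mm10, plus strand), had 320.4, 182 and 100.2 CPM in male PiC-MeA libraries, against 439, 1465, 694 and 1146 CPM in male PiC-PrL libraries. The groups again did not overlap, although the 2 replicates numbered 1 were the nearest to each other. Its log2 fold change was -2.22 ± 0.45 (SE), with an adjusted p of 0.0327 in edgeR. Averaged over both sexes it was called as well, at -1.47 ± 0.31 and an adjusted p of 0.0358 in edgeR, and it was the 1 proteasome gene called there, beside 0.822% of all genes. DESeq2 called 14 proteasome genes of 2022 genes in males and 4 of 1492 averaged over both sexes, and limma voom called 13 of 2604 and 4 of 1147.

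**Figure D3:**
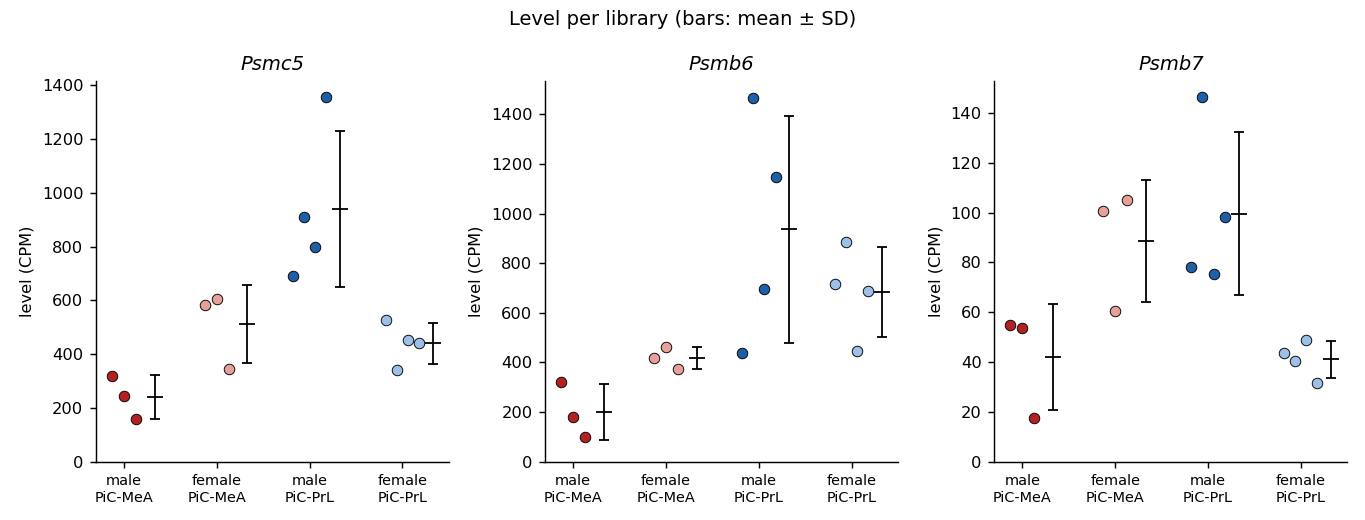
Level in CPM of Psmc5, Psmb6 and Psmb7 in each library by group, with the mean ± SD beside the points. Psmc5 and Psmb7 are higher in all male than in all female PiC-PrL libraries and lower in all male than in all female PiC-MeA libraries, and Psmb6 is lowest in the 3 male PiC-MeA libraries.

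Both male calls were lost when certain single libraries were left out. No proteasome gene was called in this comparison without male PiC-MeA replicate 2 or 3, or without male PiC-PrL replicate 2 or 4. In those fits 20 to 29 of all genes were called, against 88 with all libraries. Proteasome calls rose to 4 or 5 without male PiC-MeA replicate 1, male PiC-PrL replicate 1, female PiC-MeA replicate 3 or female PiC-PrL replicate 2. There 103 to 139 of all genes were called. The averaged call of Psmb6 was lost without female PiC-PrL replicate 2 or 4, male PiC-PrL replicate 2 or 4, any female PiC-MeA library, or male PiC-MeA replicate 2 or 3. In those fits 39 to 87 of all genes were called, against 120 with all libraries. When the fit held a covariate for detected genes no gene was called, and the fold changes turned to 0.47 for Psmc5 and 2.85 for Psmb6. That number nearly coincides with membership of the male PiC-MeA group, so the covariate and the group cannot be told apart. With each library's trend of level with gene span removed, the fold changes were -1.24 for Psmc5 and -1.10 for Psmb6 and neither was called. Psmd14 was called in that fit, as 1 of 76 genes. Proteasome genes are short, with a median span of 12462 bases against 28836 bases for all tested genes.

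Most of the other proteasome genes had negative fold changes too, though they did not pass the test. Of the 46, 41 had a negative fold change between the projections in males, with a median of -1.17, while the median of all genes was 0.16. The median was unchanged with Psmb9, at 0 in male PiC-PrL, set to its bound. An unadjusted p under 0.05 was reached by 19 with a negative and by 1 with a positive value, beside 714 and 2530 of all genes. The levels of 18 genes (39.1%) were lower in every male PiC-MeA than in every male PiC-PrL library, against 6.23% of all genes. Among genes that averaged at least 100 CPM, the 29 proteasome genes had a median of -1.22 and all 1948 a median of -0.57. Here 55.2% of the proteasome genes and 25.4% of all such genes were lower without overlap.

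All 6 ATPase genes had negative values in this comparison, with a median of -1.89, and 5 had an unadjusted p under 0.05. Psmc3 had a log2 fold change of -1.82 ± 0.45 and Psmc2 of -1.61 ± 0.44, and neither was called (adjusted p = 0.079 each in edgeR). The 3 catalytic core genes had values of -2.22 for Psmb6, -1.24 for Psmb7 and -1.03 for Psmb5. The 4 non-catalytic beta genes had a median of -1.38, the 7 constitutive alpha genes one of -0.77, and the 8 lid genes one of -1.13 with 7 negative. Psmd14 had 157, 189.6 and 148.5 CPM in male PiC-MeA libraries, against 226, 385.5, 359.8 and 451 CPM in male PiC-PrL libraries, which did not overlap. Its fold change of -1.11 ± 0.38 was not called (adjusted p = 0.098 in edgeR).

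Among receptor genes of the base, Psmd4 and Psmd2 overlapped between these groups. Adrm1, a base receptor gene outside the name rule, ran from 7.51 to 67.9 CPM in male PiC-MeA libraries. In male PiC-PrL libraries Adrm1 ran from 157.5 to 242 CPM, without overlap, and it was not called. Psmd4 had 253, 94.6 and 50.7 CPM in male PiC-MeA libraries, against 392, 533, 168.9 and 303 CPM in male PiC-PrL libraries. Psmd2 had 304, 200.2 and 51.4 CPM in male PiC-MeA libraries, against 513.5, 230.6, 585 and 311.5 CPM in male PiC-PrL libraries. Male PiC-MeA replicate 1 of both genes reached into the PiC-PrL range. The base chaperone gene Psmd5 had 69.1, 61.7 and 43.3 CPM in male PiC-MeA libraries, against 186, 173, 164 and 413 CPM in male PiC-PrL libraries, without overlap, and its fold change of -2.01 ± 0.56 was not called (adjusted p = 0.079 in edgeR).

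Activators gave no common direction in males, with 2 positive and 2 negative values and a median of 0.14. Psme4, the gene of the activator PA200, averaged 114.5 ± 33.4 CPM in male PiC-MeA (SD, n = 3) and 89.3 ± 68.0 CPM in male PiC-PrL libraries (SD, n = 4). Psme1, the other PA28 subunit gene beside Psme2, averaged 45.4 ± 13.5 CPM in male PiC-MeA and 47.7 ± 16.3 CPM in male PiC-PrL libraries. Psme3 averaged 29.7 ± 17.8 CPM in male PiC-MeA and 18 ± 12.7 CPM in male PiC-PrL libraries. These 3 genes overlapped between the groups. Psme2 was lower without overlap, at 31.0, 30.1 and 14.9 CPM in male PiC-MeA libraries, against 108, 112.5, 63.7 and 299 CPM in male PiC-PrL libraries.

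Psmf1, which encodes the proteasome inhibitor PI31, averaged 32.6 ± 5.9 CPM in male PiC-MeA and 151 ± 79.3 CPM in male PiC-PrL libraries. These overlapped, because male PiC-PrL replicate 3 held 32.8 CPM. The core chaperone genes had negative values in 4 of 4 cases. Psmg1 averaged 7.54 ± 6.59 CPM in male PiC-MeA and 31.1 ± 36.6 CPM in male PiC-PrL libraries, and Psmg2 averaged 22.2 ± 14.5 CPM in male PiC-MeA and 63.4 ± 41.6 CPM in male PiC-PrL libraries. Psmg3 reached at most 2.60 CPM in any library, Psmg4 at most 22.8 CPM and the base chaperone gene Psmd10 at most 7.93 CPM. Psmd9 averaged 16.1 ± 7.5 CPM in male PiC-MeA and 44.3 ± 33.6 CPM in male PiC-PrL libraries, but 25.5% of its exon bases also belong to Gm26745 on the other strand, and whether strand was used in counting is not stated in the labels.

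Promoters were searched because the transcription factor Nfe2l1, known for raising proteasome genes when proteasomes are inhibited, binds antioxidant response elements with the core TGACNNNGC. RefSeq promoters (GRCm38.p6, 250 bases before to 50 after the start) were held for 40 of the 48 genes. On either strand the core was present in 6 of them (15%) and in 14% of 27025 genes, and the CCAAT box, which NF-Y binds, was present in 35.0% of them and in 41.1% of all genes. The match closest upstream of the start was that of Psmb6, and those of Psmb5 and Psmd9 also lay within 50 bases of it on the gene's own strand. These 3 windows are shown with the core in capitals, 5′ to 3′ along the gene, for chr11:70525338-70525366 (plus strand), chr14:54618024-54618052 (minus strand) and chr5:123228149-123228177 (plus strand). Counted from the RefSeq start, which for Psmb6 is base 70525357 and differs from the GENCODE gene start given above, the core covers bases -9 to -1 in Psmb6, -47 to -39 in Psmb5 and -31 to -23 in Psmd9. The promoter of Psmc5 holds no such letters in this window. A match is a description of the letters and not a binding site shown by these data.
Psmb6: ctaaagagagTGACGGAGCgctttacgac
Psmb5: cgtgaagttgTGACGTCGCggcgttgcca
Psmd9: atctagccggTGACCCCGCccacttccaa

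The genes that carry the core did not share 1 level or 1 pattern. Psmb6 was the most abundant proteasome gene per kb, and Psmd9 averaged 15.5 CPM per kb. Psmb5, the gene of the chymotrypsin-like subunit, had 196.4, 65.5 and 20.4 CPM in male PiC-MeA libraries, 351, 333 and 117 CPM in female PiC-MeA libraries, 135, 355, 189 and 91.0 CPM in male PiC-PrL libraries and 154, 119, 171 and 238 CPM in female PiC-PrL libraries. All of these ranges overlapped.

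Between projections in females no call was made. None of the 46 was called in edgeR, as none of all genes was (0%), none reached an unadjusted p under 0.05 beside 1619 of all genes, and DESeq2 and limma voom called none of the 46, against 628 and 31 of all genes. The median fold change was -0.07 with 20 positive values, beside -0.06 for all genes. The smallest p was that of Psmd12, a lid gene, with 183, 141 and 50.6 CPM in female PiC-MeA libraries, against 193.5, 340.0, 191 and 204 CPM in female PiC-PrL libraries. Its fold change of -0.90 ± 0.50 had an adjusted p of 0.555 in edgeR. Psmd10 and Psmb6 followed, with fold changes of -2.81 ± 1.68 and -0.71 ± 0.43. Psmb6 had 420, 461 and 373 CPM in female PiC-MeA libraries, against 717, 886, 446 and 687 CPM in female PiC-PrL libraries, where replicate 3 fell in the range of the other projection. Lower without overlap were 4 genes (Psma8, Psmd10, Psmd12 and Psmd4), beside 3.97% of all genes, and higher were 3 (Psmb3, Psmb7 and Psmd8), beside 4.47%. All Psma8 values here were 0 to 2 counts, under the floor of 3, so its order carries no information.

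Between the sexes in PiC-MeA, most proteasome genes had negative fold changes, but none was called in edgeR, and none of all genes was either (0%). An unadjusted p under 0.05 was reached by 11 of the 46 proteasome genes and by 1805 of all genes (12.4%). DESeq2 called 1, Psma8, and limma voom called 4, Psma8, Psmb3, Psmc5 and Psmd13, against 777 and 1733 of all genes, where Psma8 was in the test only through its male PiC-MeA counts. Of the 46, 42 had a negative value and the median was -0.85, beside 0.12 for all genes. When the fit held the detected-gene covariate the median was 0.29, and with the span trend removed it was -0.46. The levels of 17 genes (37.0%) were lower in every male than in every female library, beside 8.76% of all genes. Among genes that averaged at least 100 CPM the medians were -0.89 for proteasome genes and -0.29 for all, and 44.8% and 23.5% were lower without overlap.

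Psmc5 had 319, 243.7 and 158 CPM in male PiC-MeA libraries, against 584, 606 and 345 CPM in female PiC-MeA libraries, without overlap. Its fold change was -1.09 ± 0.36, with an adjusted p of 0.298 in edgeR, and it turned to 0.81 with the detected-gene covariate. Psmb3, a structural beta ring gene, had 112, 91.0 and 27.0 CPM in male PiC-MeA libraries, against 223, 186 and 195.5 CPM in female PiC-MeA libraries, with a fold change of -1.39 ± 0.53 and an adjusted p of 0.317 in edgeR. Psma8, described above, had the smallest p of the proteasome genes here, with an adjusted p of 0.298 in edgeR. Psmb7 had 55.1, 53.7 and 17.6 CPM in male PiC-MeA libraries, against 100.7, 60.4 and 105 CPM in female PiC-MeA libraries, also without overlap. For Psmb7, 11.8% of exon bases also belong to Nek6 on the other strand.

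Between the sexes in PiC-PrL most proteasome genes had positive fold changes. No proteasome gene was called in edgeR, and no gene at all was (0%). An unadjusted p under 0.05 was reached by 7 of the 46 and by 2093 of all genes (14.3%), which are similar shares. DESeq2 called 2 of the 46, Psmb7 and Psmc5, and limma voom called none, against 1017 and 8 of all 14599 genes. The share of proteasome genes that DESeq2 called was below that of all genes. Of the 46, 33 had a positive value and the median was 0.35, beside -0.02 for all genes, and it was 0.35 as well with Psmb9 at its bound. It was 0.12 with the detected-gene covariate and 0.11 without the 3 PiC-PrL libraries that had fewest genes at 10 counts. Among genes of at least 100 CPM the medians were 0.44 for proteasome genes and 0.11 for all. The base and lid had a median of 0.60, the core one of 0.18, and the activators, inhibitor and chaperones one of -0.03. Higher in every male than in every female library were 4 genes (8.7%), Psmb7, Psmc5, Psmd5 and Psmd6, beside 1.49% of all genes. None was lower without overlap, beside 2.02% of all genes. Among genes of at least 100 CPM, 10.3% of proteasome genes and 4.41% of all were higher without overlap.

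All 6 ATPase genes had positive values in PiC-PrL males, with a median of 0.89. Psmc5 had 692, 911.5, 800.2 and 1356 CPM in male PiC-PrL libraries, against 528, 342, 451.5 and 441 CPM in female PiC-PrL libraries, with every male above every female. Its fold change of 1.09 ± 0.31 had an adjusted p of 0.283 in edgeR. Psmc3 had 515, 779, 583 and 741 CPM in male PiC-PrL libraries, against 523, 201.5, 343 and 208 CPM in female PiC-PrL libraries, where replicate 1 overlapped with the males. Its fold change was 1.04 ± 0.40, with an adjusted p of 0.283 in edgeR. Psmb7 had 78.0, 146 and 75.6 CPM in male replicates 1 to 3 and 98.4 CPM in replicate 4, against 43.8, 40.3, 49.0 and 31.4 CPM in female PiC-PrL libraries. Psmb9 was at 0 in all male PiC-PrL libraries and averaged 6.51 CPM in female ones, at least 28.2-fold higher in females than a floor of 3 counts per male library allows, but 367 of its counts came from replicate 4.

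**Figure D4:**
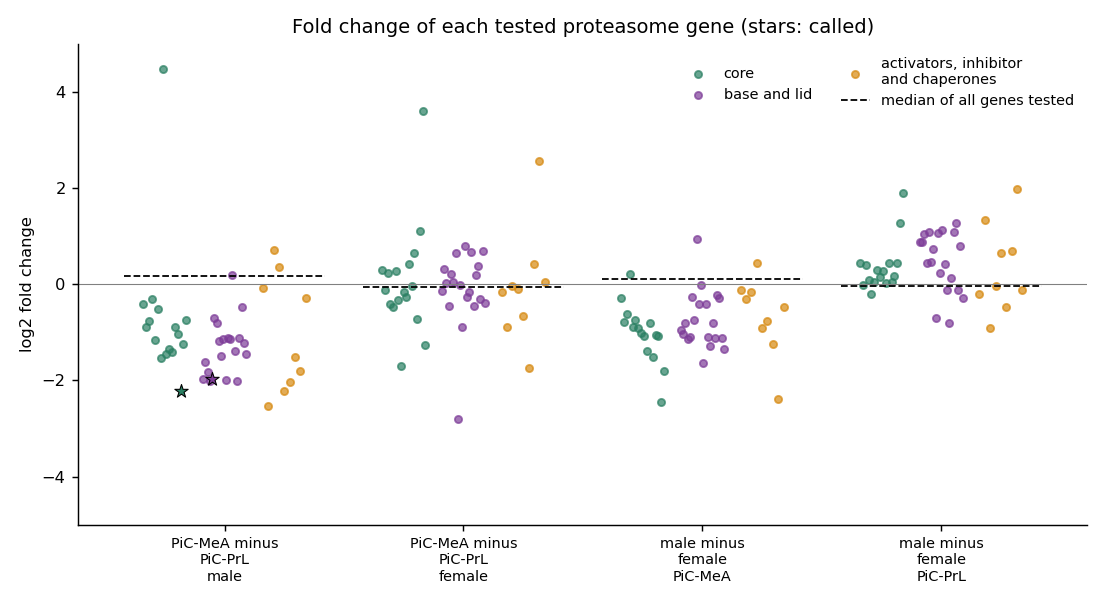
Log2 fold change of each tested proteasome gene in 4 comparisons, by class, with the 2 called genes as stars and the median of all genes tested as a dashed line. In 3 comparisons 1 core gene lies beyond the axis limits. The points sit mostly below the dashed line for PiC-MeA minus PiC-PrL in males and for male minus female in PiC-MeA, and mostly above it for male minus female in PiC-PrL.

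The 2 sex differences were then set against each other. No proteasome gene was called for their difference in edgeR, nor any of all genes (0%). An unadjusted p under 0.05 was reached by 14 of the 46 proteasome genes and by 2272 of all genes (15.6%). DESeq2 called 6 proteasome genes, Psmb3, Psmb7, Psmc2, Psmc5, Psmd13 and Psmd5, and limma voom called 1, Psmc5, against 1175 and 643 of all genes. The smallest p was that of Psmc5, with a difference of -2.18 ± 0.48 and an adjusted p of 0.152 in edgeR. Psmd13, a lid gene, followed with -2.78 ± 0.86 and Psmc2 with -1.93 ± 0.60, each with an adjusted p of 0.152 in edgeR. The median over the 46 was -1.08 with 39 negative, beside 0.31 for all genes. Among genes of at least 100 CPM the medians were -1.29 for proteasome genes and -0.45 for all. Over the 46 the median was 0.27 with the detected-gene covariate. Psmb7 and Psmc5 were the genes whose sexes did not overlap in either projection and in opposite directions, a pattern that 57 of all genes (0.39%) shared. These comparisons use the same 4 groups, so their values are not independent.

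Averaged over the projections, the sexes showed no call among proteasome genes in edgeR, beside 0.0137% of all genes (2 genes). DESeq2 and limma voom called none of them either, against 631 and 3 of all genes. An unadjusted p under 0.05 was reached by 2 of the 46, Psma8 and Psmb9, whose counts came mostly from a few libraries, beside 1557 of all genes (10.7%). The median was -0.21 with 14 positive values, beside 0.04 for all genes. Psmb2, a beta ring gene, had the next smallest p, with a fold change of -0.52 ± 0.29 and an adjusted p of 0.571 in edgeR. It had 168, 138 and 83.0 CPM in male PiC-MeA libraries, against 343, 205.4 and 267 CPM in female PiC-MeA libraries, and the sexes overlapped in PiC-PrL.

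Extreme values gathered in a few libraries. Among the 40 proteasome genes with a median of at least 10 CPM, male PiC-MeA replicate 3 held the lowest value for 23 and female PiC-PrL replicate 2 for 7. The highest values were in male PiC-PrL replicate 4 for 13 genes and in male PiC-PrL replicate 2 for 11. Proteasome genes seldom dropped out in single tubes. Of 560 values, 9 (1.61%) lay over 10-fold below the gene's own median, against 9.53% for all 7056 genes with a median of at least 10 CPM. Above that limit the proteasome genes and all genes were not matched in level. Among genes that averaged at least 100 CPM the median SD within groups, on the log2(CPM + 1) scale, was 0.59 for 29 proteasome genes and 0.69 for 1948 genes. The smallest spread among those was that of Psmd14 at 0.38, and the widest over all 46 was that of Psmf1 at 1.93.

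**Figure D5:**
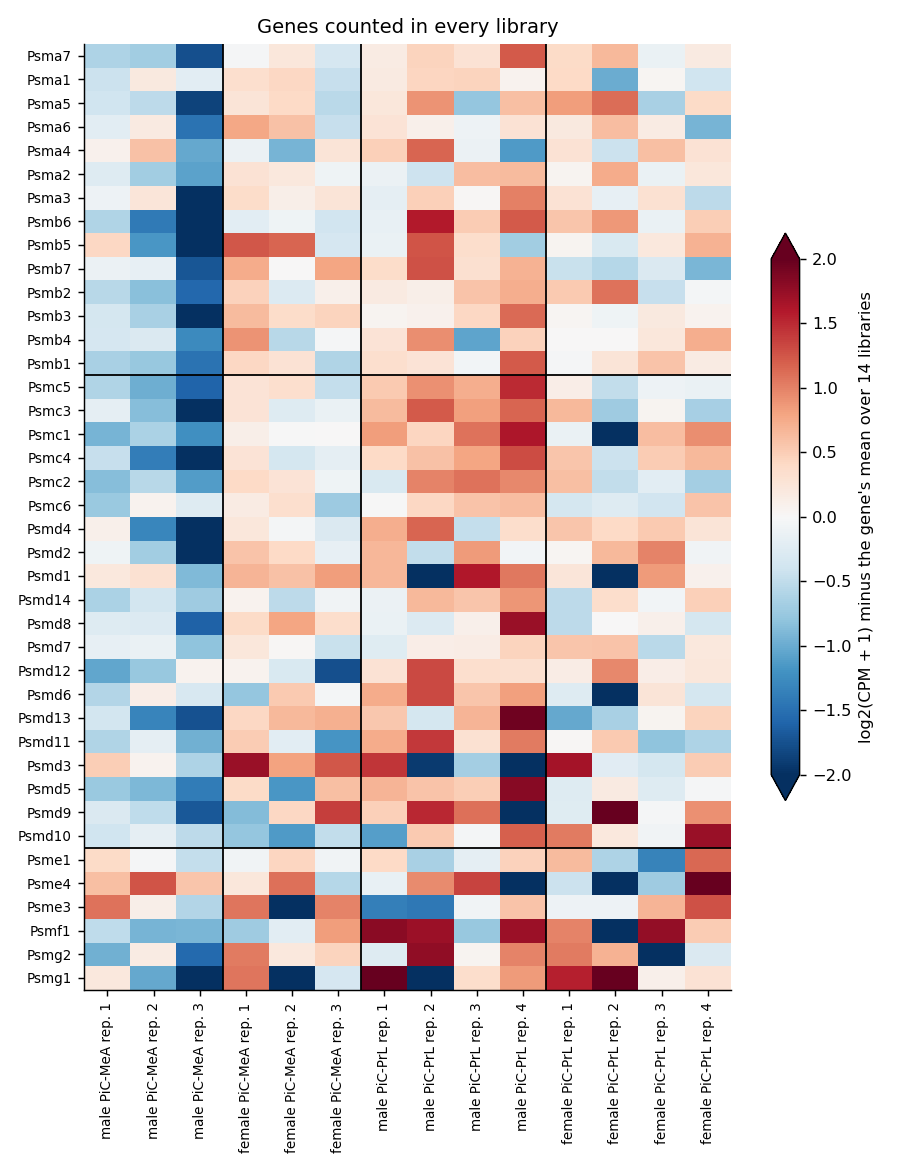
Deviation of log2(CPM + 1) from each gene's mean over 14 libraries, for the genes counted in every library, with genes by role from top to bottom and libraries by group from left to right. Male PiC-MeA replicate 3 is low for most core and base genes, male PiC-PrL replicates 2 and 4 are high for many, and activators and chaperones vary from tube to tube.

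Genes that act around the proteasome were followed as lists. Of 16 tested ubiquitin, E1, shuttle and unfoldase genes, 1 was called between projections in males, beside 0.603% of all genes. That gene was Ubb, a polyubiquitin gene. It averaged 2028 ± 1282 CPM in male PiC-MeA (SD, n = 3) and 13370 ± 4449 CPM in male PiC-PrL libraries (SD, n = 4), without overlap, with a fold change of -2.72 ± 0.38 and an adjusted p of 0.00259 in edgeR. Ubiquitin genes share repeats, and the sources do not state how the counting treated reads that fit several genes. Of 8 other proteasome subunits and bound factors none was called in males. The smallest p was that of Pomp, the maturation protein of the core, with 114 ± 33.6 CPM in male PiC-MeA and 363 ± 97.8 CPM in male PiC-PrL libraries and an adjusted p of 0.0656 in edgeR.

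Averaged over the sexes, between the projections, 1 gene was called in each of 5 lists, beside 0.822% of all genes. Ubb fell by 1.81 ± 0.26 and Pomp by 1.30 ± 0.27 on the log2 scale in PiC-MeA. Of 11 regulators of proteasome genes, Mafk, a partner of Nfe2l1, was called as higher. It ran from 1.71 to 11.4 CPM in male and from 0 to 26.8 CPM in female PiC-MeA libraries, while no PiC-PrL library held over 1 count. Of 9 interferon and antigen presentation genes, Ifit1 was called as higher, with at most 85 counts in any library. No PiC-PrL library held over 1 count of Ifit1 either. Mafk and Ifit1 passed the filter on low counts only through PiC-MeA libraries, so their calls support no difference between groups. Of 7 neuron markers 1 was called, Snap25, a gene outside the proteasome that was lower in PiC-MeA, with a fold change of -0.86 ± 0.18. Among the 7, 5 had negative and 2 positive values, and a link to the proteasome genes was not tested. None of the 6 astrocyte, 5 oligodendrocyte, 5 microglia and 2 endothelial markers tested was called here, and apart from Ubb in males no gene of the 9 lists was called in any of the other comparisons. Nfe2l1 itself averaged 46.5 ± 23.1 CPM in male PiC-MeA, 90.9 ± 22.4 CPM in female PiC-MeA, 57.3 ± 50.6 CPM in male PiC-PrL and 87.5 ± 79.2 CPM in female PiC-PrL libraries, which overlapped.

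Some proteasome genes may share reads with copies. The table lists 5 pseudogenes named after proteasome genes, of which Psma5-ps held 9.77% as many counts as Psma5 in all and 7.74 to 18% per library. Psmb6-ps2 held 0.191% as many as Psmb6.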

How the data were processed

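The members were found by gene name in the table, and members and gene lists were chosen with earlier results of these data known. The deposited table holds raw read counts per gene, 1 column per library, as the authors counted them. Among the tools in the submitters' processing notes are featureCounts 2.0.1, SAMtools, HISAT2 2.2.1 and Trimmomatic 0.39, and the build there is mm10. Neither the annotation release nor the counting settings for strand and shared reads are stated in the labels.

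Genes were kept by filterByExpr (minimum count 10, minimum total 15) and fitted over all 14 libraries with TMM factors and 1 mean per group, from which 7 contrasts were tested with robust quasi-likelihood F-tests (edgeR 4.0.16, R 4.3.3). Adjusted p-values are Benjamini-Hochberg over all 14599 genes. DESeq2 1.42.0 and limma 3.58.1 voom were alternatives, as were other scalings, filters, covariates, a replicate block and leaving out libraries, and the edgeR script was tested on simulated data. The labels do not tie replicate numbers to animals, so no pairing was used. Positions, spans and transcript lengths came from GENCODE M21 and promoters from RefSeq. The lists were other proteasome factors, ubiquitin genes, regulators, interferon genes and markers of 5 cell types. Named were genes of fixed roles, the highest and lowest per kb in a role, called genes and, where none was called, the 3 with the smallest p. Psma1, Psmd6, Psmd8, B2m, Nfe2l1, Adrm1 and Pomp in males and the comparison over genes of at least 100 CPM were added after values were seen. Depth limits low genes: 1 count is 1 in 6132985 to 15392217, and intervals and floors of 3 counts cover counting error only.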

Additional observations from a re-analysis of the deposited data

Results flagged for a closer look

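Sex differences of opposite sign in the 2 projections, with every male library beyond every female library, were found for 2 named genes and 2 sums. For Psmc5 the male minus female difference of means was -271.7 CPM in PiC-MeA and 499 CPM in PiC-PrL, and the edgeR test of the difference between these gave an adjusted p of 0.152. For Psmb7 it was -46.6 CPM in PiC-MeA and 58.5 CPM in PiC-PrL, and that test gave an adjusted p of 0.254 in edgeR. The sum over all proteasome genes differed by -3242 CPM in PiC-MeA and 3019 CPM in PiC-PrL, and the base and lid sum by -1776 CPM and 2274 CPM, and for the sums the difference was not tested.

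Among 76 groups of 4 libraries, 11 had 1 library apart from the other 3 by Dixon's gap over range at the 95% level. Groups at 0 in all 4 libraries, of Psmb10, Psmb11 and in males Psmb9, could not be examined. Chance gives about 1 group in 20 at that level, but this rate does not hold where 1 library has all the counts. Such a library is always set apart, as for Psmb8 in both groups and Psmg3 in female PiC-PrL. The groups share libraries and are not independent. In female PiC-PrL these were replicate 1 for Psmb8 (0.724 CPM), replicate 3 for Psmg3 (1.21 CPM), replicate 2 for Psmd12 (340.0 CPM) and replicate 4 for Psmb9 (25.8 CPM), Psmc6 (319 CPM) and Psme4 (276 CPM), each above the others. In male PiC-PrL they were replicate 3 for Psmb8 (2.78 CPM), replicate 2 for Psmd12 (434.8 CPM) and replicate 4 for Psmd5 (413 CPM), each above the others. Replicate 1 for Psmc2 (179 CPM) and replicate 3 for Psmf1 (32.8 CPM) lay below them. The groups of 3 libraries were not examined in this way.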

How the results depend on the processing

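Of 765 alternative values for proteasome genes and sums, 677 stayed on their side of the threshold in the same direction or, for medians, sums and counts, within the replicate spread or 1.5 times the value. Among these the female projection median of -0.07 had the opposite sign in 3 of 25. With a covariate for detected genes 0 proteasome genes were called between the projections in males and over both sexes, and 6 values turned: Psmc5 to 0.47 between projections in males, 0.81 between sexes in PiC-MeA and 0.18 for the difference between sex differences, Psmb6 to 2.85 in males and 1.20 over both sexes, and Psmb2 to 0.0224 between sexes over both projections. The member medians under that covariate were 0.39 for the projections in males, 0.13 over both sexes, 0.29 for sex in PiC-MeA, 0.14 for sex over both projections and 0.27 for the difference. The number of detected genes and the male PiC-MeA group cannot be told apart. The replicate block gave 1 call in males and 0 over both sexes (38 and 43 of all genes), although numbers did not pair libraries (19 pairs, r of -0.0388 to 0.0407, with 17 of 38 closest to their own number). Removing the span trend gave 1 and 0 (76 and 130 of all genes), with medians of -0.46 for sex in PiC-MeA and -0.69 for the difference. Leaving out the 3 PiC-PrL libraries that had fewest genes at 10 counts, there were 0 calls in both (16 and 31 of all genes). In males there were 5 calls with no filter (159 of all genes) and 7 with only the groups compared (987 of all genes). Of the 46 proteasome genes DESeq2 called 14 in males, 4 over both sexes, 2 for sex in PiC-PrL, 1 for sex in PiC-MeA and 6 for the difference. Of all 14599 genes it called 2022, 1492, 1017, 777 and 1175 there. Limma voom called 13, 4, 0, 4 and 1 proteasome genes, beside 2604, 1147, 8, 1733 and 643 of all genes. Leaving out each library gave 0 to 5 calls in males (20 to 139 of all genes) and 0 to 2 over both sexes (39 to 128 of all genes). Medians were -1.49 to -1.05 in males, -1.18 to -0.70 for sex in PiC-MeA and -1.47 to -0.90 for the difference. In males limma voom placed the median of all genes at 1.63, no filter at 1.23 and the block at 0.87, against 0.16 as reported, and the member median minus that of all genes was -2.54, -2.48 and -2.01. The female PiC-PrL sum was 7553 CPM when scaled by total counts alone. In all these cases the cause was not tested. Genes of few counts, such as Psmb8, Psmb9 and Psmg3, are limited by depth.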
